A study of Triticum aestivum and Triticum urartu with 56 samples.

Results

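WAPO1, WFZP and TB1 are 3 sets of homoeologous genes that shape the wheat inflorescence, 9 genes in all of the 107891 listed in the RNA-seq files, each set with a copy in the A, B and D subgenomes. They were chosen by name, not by their levels, though with earlier results of these data known: WAPO1 on group 7 (TraesCS7A02G481600, TraesCS7B02G384000 and TraesCS7D02G468700), WFZP on group 2 (TraesCS2A02G116900, TraesCS2B02G136100 and TraesCS2D02G118200) and TB1 on group 4 (TraesCS4A02G271300, TraesCS4B02G042700 and TraesCS4D02G040100). The files hold only the identifiers, so the names rest on the gene list used to choose them, and no file held the positions or sequences of these genes.

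WAPO1 encodes an F-box protein, the wheat counterpart of rice APO1, and is known for its effect on the number of spikelets on a spike. WFZP is an ERF-type transcription factor related to rice FRIZZY PANICLE, known for holding back branching so that a spikelet forms florets in place of extra spikelets. TB1 is a TCP-type transcription factor, the counterpart of maize TEOSINTE BRANCHED1, known for restraining the outgrowth of axillary buds and, in wheat, for its part in the formation of paired spikelets. All of them are known mainly from young inflorescences and axillary buds, and a booting spike is an older organ, already formed inside the flag leaf sheath.

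The study mapped transcription starts in wheat. It used RNA interference against a transcript of an enhancer-like element that derives from the RLG_famc7.3 retrotransposon subfamily. The spike libraries come from 3 control plants (CK, genotype WT) and 4 RNAi lines (genotype RLG_7.3_enh_RNAi, first transgenic generation, T0), all taken at booting, Feekes stage 10. The labels give the cultivar of both groups as Fielder while the methods name JW1, and the labels call the tissue spikelets while the methods call it spike. The titles of these libraries begin with cs, a prefix that the Chinese Spring samples also carry. A further 2 libraries of cultivar Chinese Spring hold 9-day roots and immature embryos taken 14 days post anthesis, 1 library each and with no treatment, although another of their labels reads 12-days-old seedlings. CK and RNAi share the stage and, by the labels, carry no other stated allele or treatment. The paper's results, however, describe CK plants as transgenic negative controls, where its methods say WT. Each RNAi library is 1 primary transformant line. No marker of spike, root or embryo could be checked, since the files pair no identifier with a name.

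Depth sets what could be seen of genes this low. The spike files give FPKM, fragments per kilobase of gene, scaled to the depth of the library, from which whole reads could be recovered for 99.9% of values above 0. Reads on genes then ranged from 2492419 in CK replicate 1 to 9850057 in RNAi replicate 3, with 50328934 in the 7 spike libraries together, 20705861 in root and 33911272 in embryo. CK replicate 2 stood apart from the other libraries, with correlations of 0.778 to 0.862 on log2(FPKM + 1) against 0.859 to 0.963 among the remaining 15 pairs of libraries. Its FPKM were scaled to a total of 8059276 with 4176990 reads on genes, against 9737702 and 8393620 in CK replicate 3. Relative to reads on genes, its FPKM values and FPKM limits are therefore set lower than those of CK replicate 3. A gene with 0 reads could still have been present at up to 3 reads, which is 0.357 to 1.20 RPM (reads in 1000000 reads on genes) in the CK libraries, highest in replicate 1, 0.305 to 0.416 in the RNAi libraries, 0.145 in root and 0.0885 in embryo. These limits and the intervals given here cover counting error only, since no molecular identifiers were stated and reads from 1 molecule may be counted more than once. In whole organs, fewer cells that express a gene and less RNA in each of them cannot be told apart.

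None of the 9 genes was on in the booting spike. A gene was called on when its mean FPKM over the 3 CK libraries was at least 0.5, which 55345 of the 107891 listed genes reached (51.3%). Of the 63 values that the 9 genes have in the 7 spike libraries, 3 were above 0, and each of those 3 came from a different gene and rested on as few as 1 or 2 reads. At the fewest reads that match these values, the 9 genes together had 4 reads in the spike. They had 22 in root and 6 in embryo. These totals are not scaled to depth, which was 50328934, 20705861 and 33911272 reads on genes in that order. With RNAi libraries in place of CK the number on was also 0, and it was 0 with a minimum of 0.1 FPKM. A minimum of 1 FPKM is stricter and could only give 0 as well.

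**Figure D1:**
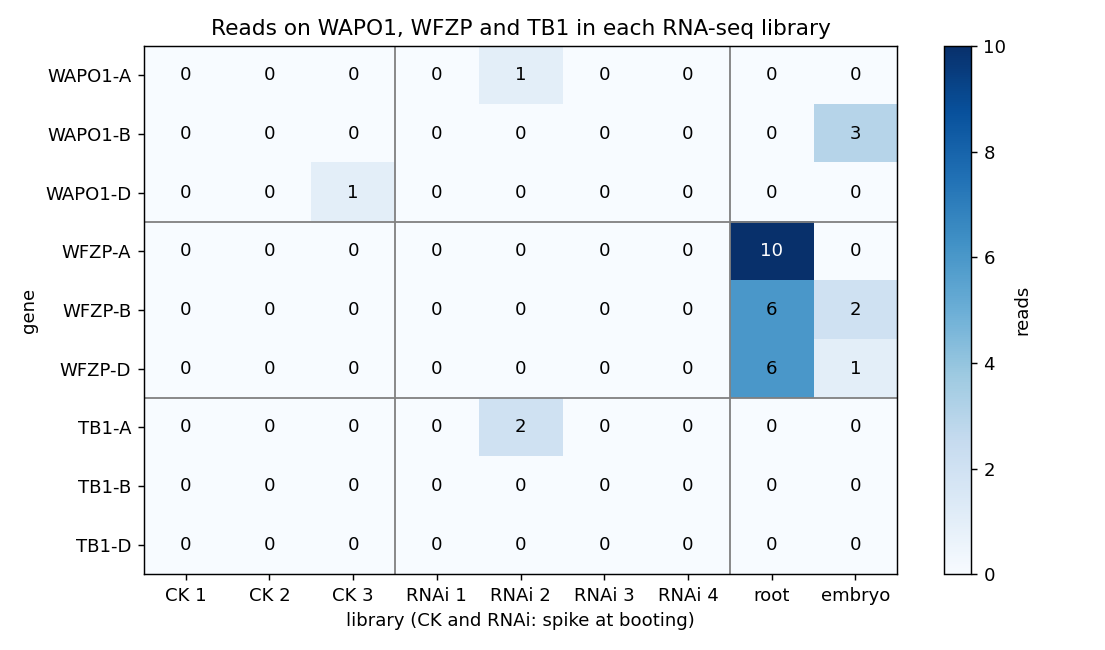
Reads on each of the 9 genes (rows) in each of the 9 RNA-seq libraries (columns, CK and RNAi being booting spikes), with the number of reads printed in each cell and shown by its shade. Spike reads are the fewest that match the FPKM value. Only 9 of the 81 cells are above 0, and the highest are the 3 WFZP genes in root at 10, 6 and 6.

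WAPO1, the spikelet number gene, left 1 read in CK and 1 read in RNAi at the fewest. WAPO1-D was listed at 0.0721 FPKM in CK replicate 3, and at 0 in CK replicates 1 and 2 and all 4 RNAi libraries. WAPO1-A was at 0 in the 3 CK libraries, at 0.0776 in RNAi replicate 2 and at 0 in RNAi replicates 1, 3 and 4. WAPO1-B was at 0 in all 7. The CK and RNAi values of WAPO1-A and WAPO1-D therefore overlapped, with 0 the commonest value in either group. Outside the spike, WAPO1-B had 3 reads in embryo, or 0.0885 CPM (counts in 1000000 reads on genes, exact 95% Poisson interval 0.0182 to 0.259), and none in root, while WAPO1-A and WAPO1-D had none in either. The copy with reads was thus D in a control spike, A in an RNAi spike and B in the embryo, each on 3 reads or fewer.

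The value of 0.0721 for WAPO1-D is 1 read if the gene model is 1425 bases long, and 0.0776 for WAPO1-A is 1 read if it is 1323 bases long. A model of 2850 or 2646 bases would make each of them 2 reads, and a value seen in a single library cannot separate these. At the shorter length, 0 reads of WAPO1-A allowed up to 0.714 FPKM in CK replicate 1, above the minimum of 0.5, but no more than 0.281 in the other two CK libraries. The 0.281 is that of CK replicate 2, and it would be higher if scaled to reads on genes. Over the summed totals to which the CK FPKM were scaled, the limit was 0.108 FPKM. It too would be higher if scaled to reads on genes, and a longer model would lower it. The mean CK level of WAPO1-D was 0.0240 ± 0.0416 FPKM (SD, n = 3), a level under which 30.4% of listed genes lay.

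WFZP, the branching repressor, was listed at 0 FPKM in all 7 spike libraries for each of its 3 copies. No spike library held a read of it, which over the 7 together allows up to 0.0596 RPM for any copy. Among all listed genes, 23.4% were at 0 in all 7 spike libraries, and 6 of the 9 genes described here were. The 3 WFZP copies were all read in root and 2 of them in embryo: WFZP-A had 10 reads in root and 0 in embryo, WFZP-B had 6 and 2, and WFZP-D had 6 and 1. In CPM these root levels were 0.483 for WFZP-A (exact 95% Poisson interval 0.232 to 0.888) and 0.290 for WFZP-B and WFZP-D alike (0.106 to 0.631). A root count of 10 is itself low, since 22.6% of the genes with any root read had 10 or fewer.

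Each WFZP copy had more reads in root than in embryo, in 1 library of each and so with no replicate check and no test. WFZP-A was at least 5.46-fold higher in root, taking 3 reads as the embryo floor and the root count as it stands, without its own counting error. WFZP-D was 9.83-fold higher (exact 95% interval 1.19 to 452) and WFZP-B 4.91-fold higher, with an interval of 0.879 to 49.8 that includes no difference. Summed over the 3 copies, 22 reads in root stood against 3 in embryo, a 12.0-fold ratio of CPM (interval 3.61 to 62.7). This ratio was lower under the other scalings, 10.7-fold with TMM factors and 9.68-fold with upper quartile scaling. As a background, of the 69213 genes with at least 10 reads in the 2 libraries together, 23.6% were at least 4-fold higher in root and 11.5% at least 4-fold higher in embryo. WFZP-A was the single one of the 9 genes with enough reads to enter that count, on the root side.

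Having no read in the spike but reads in root was a state shared with many genes. Of all listed genes, 8148 (7.55%) had 0 in the 7 spike libraries and at least 1 read in root, and 4599 (4.26%) had at least 6, as each WFZP copy did. Those with at least 10 reads in root and none in embryo, the state of WFZP-A, numbered 1966 (1.82%). Spike and root were different cultivars by the labels and by the methods, though not by the titles, and their files were made in different units. Per the methods, different companies also made their libraries. No fold was therefore taken between the 1.06 RPM of the summed WFZP copies in root (0.666 to 1.61) and the 0 in the spike.

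**Figure D2:**
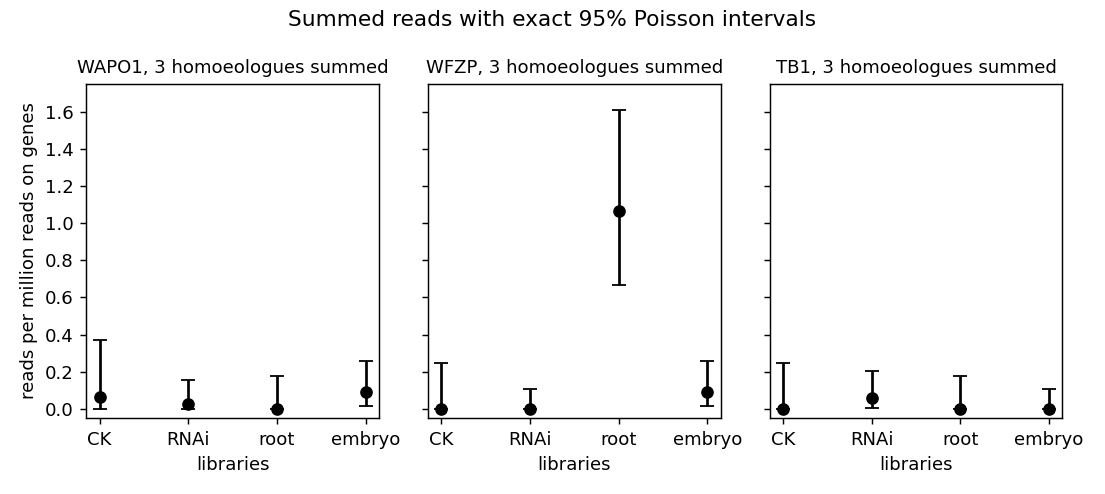
Reads summed over the 3 homoeologues of WAPO1, WFZP and TB1, in RPM of the reads on genes, in CK (3 libraries pooled), RNAi (4 pooled), root and embryo (1 each), with exact 95% Poisson intervals as bars and spike reads at the fewest that match the FPKM. WFZP in root, at 1.06, is the only point above 0.1, and every other interval lies under 0.4.

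TB1, the bud outgrowth repressor, was seen in 1 of the 9 libraries. TB1-B and TB1-D had no read in any of the 9 libraries, a state that 13.8% of listed genes shared. TB1-A was at 0 in the 3 CK libraries, at 0.130 FPKM in RNAi replicate 2 and at 0 in the other 3 RNAi libraries, and it too had no read in root or embryo. The value in RNAi replicate 2 is 2 reads for a gene model of 1575 bases, or 4 reads for one of 3150. At the shorter length, 0 reads in CK allowed up to 0.60 FPKM in replicate 1 and at most 0.236 in the other CK libraries. Over the summed totals to which the CK FPKM were scaled, the limit was 0.0908. Here too the limit of CK replicate 2, 0.236, and the summed limit would be higher if scaled to reads on genes.

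No homoeologue could be named as leading in the spike. In each of the 3 sets the copies were compared in pairs within each library, 9 pairs in all, by a two-sided exact permutation test that changes the sign of the difference in log2(FPKM + 1). Only 5 pairs had a read in either gene, 4 of them in 1 library and the other in 2. The test could say nothing about them, since a difference in 1 library always gives an exact p of 1 and differences in 2 give at least 0.5, and the values are a description. WAPO1-A exceeded WAPO1-D in 1 library and fell short of it in 1 other, and the mean difference was 0.00 ± 0.06 (SD, n = 7). TB1-A exceeded TB1-B and TB1-D in 1 library, by a mean of 0.03 ± 0.07 (SD, n = 7). For WFZP all 3 differences were 0 in every library.

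In root the order of the WFZP copies was A, then B and D at the same number of reads. WFZP-A took 45.5% of the 22 reads (exact 95% Clopper-Pearson interval 24.4 to 67.8%) and the other two 27.3% each (10.7 to 50.2%), and an even split at 33.3% lies inside all of these intervals. The counts are not per length, since the lengths of the WFZP genes could not be recovered from values of 0, and reads that fit several near-identical copies may have been divided or dropped when the authors counted. No order of the copies is therefore given beyond these counts. No set had a copy with a mean spike FPKM of 0.5, so no genes with a similar profile are named.

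No difference between RNAi and CK was called for any of the 9 genes. All of them lay under the minimum mean FPKM of 0.5 that the fit across genes used, so 0 of 9 were tested there, while 4.31% of the 55551 genes tested were lower and 5.23% higher in RNAi at a log2 fold change past 1 and an unadjusted p under 0.05 (limma), or 2393 and 2904 genes, a split that turned to 2819 lower and 2198 higher with quantile normalization. At a Benjamini-Hochberg adjusted p under 0.05, which here and below sets no fold threshold, 0.598% were lower and 0.0306% higher. Without the minimum, 82611 genes were tested and 3 of the 9 among them, of which 0 were called, against 2.76% lower and 3.32% higher over all genes, or 0.317% and 0.00726% at an adjusted p under 0.05. On the log2(FPKM + 1) scale TB1-A differed by 0.04 (SE 0.06, limma adjusted p = 0.733), WAPO1-A by 0.03 (SE 0.05, adjusted p = 0.807) and WAPO1-D by -0.03 (SE 0.05, adjusted p = 0.754), RNAi minus CK. With 0.1 added in place of 1, the differences were 0.30 (SE 0.38) for TB1-A, 0.21 (SE 0.33) for WAPO1-A and -0.26 (SE 0.32) for WAPO1-D, with limma adjusted p of 0.708, 0.762 and 0.697. Each of these rests on a single library, and its size is set by the number added. With 1 library above 0 at values this low, no log2 fold change past 1 could arise. The 0 called without the minimum was therefore fixed in advance and says nothing about an RNAi effect. Depth moved with the groups, at 15063029 reads on genes in CK and 35265905 in RNAi, and its part in the single reads seen in RNAi was not tested.

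Reads confined to 1 spike library were also found in other genes. The 3 genes of the 9 seen in the spike were each above 0 in just 1 of the 7 libraries, as were 6.21% of all listed genes. Of those 6698 genes, 15.3% were seen in RNAi replicate 2, which held WAPO1-A and TB1-A, and 30.5% in CK replicate 3, which held WAPO1-D, beside 8.67 to 12.4% in the other 5.

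Many of the genes numbered next to the 9 were on in the same libraries. Taking the 5 identifiers before and the 5 after each gene on its chromosome, 52 of 90 neighbours (57.8%) had a mean CK FPKM of at least 0.5, beside 51.3% of all genes. In this order most neighbours of TB1 were on, with 9 of 10 for TB1-A, 9 for TB1-B and 7 for TB1-D. Their maxima were 36.0, 46.4 and 29.3 FPKM in CK. WFZP-A and WFZP-D had 6 of 10 neighbours on and WFZP-B had 3. Each WAPO1 gene had 4 of 10 on. Whether the windows around the 3 copies of a gene hold copies of the same neighbours was not checked. The 90 neighbours are therefore not taken as independent.

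In identifier order, the 3 WAPO1 copies each came between a gene that was on and a gene that was not. The identifier just before each had a mean CK level of 6.46 ± 5.42 FPKM (SD, n = 3) beside WAPO1-A, 6.18 ± 4.44 beside WAPO1-B and 7.59 ± 6.09 beside WAPO1-D, with 209, 512 and 379 reads in root. The identifier just after each was at 0 in all CK libraries and had 16, 19 and 4 root reads, in that order. These SDs were large beside their means. Of the 6 WFZP and TB1 genes, WFZP-A, TB1-A and TB1-D had an adjacent gene on at either side, as with 7.02 ± 3.09 and 3.22 ± 0.933 FPKM beside WFZP-A. WFZP-B, WFZP-D and TB1-B had an adjacent gene on at one side, at 6.23 ± 1.64, 6.96 ± 2.12 and 1.37 ± 0.394 FPKM, and one at 0 in all 7 spike libraries at the other.

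**Figure D3:**
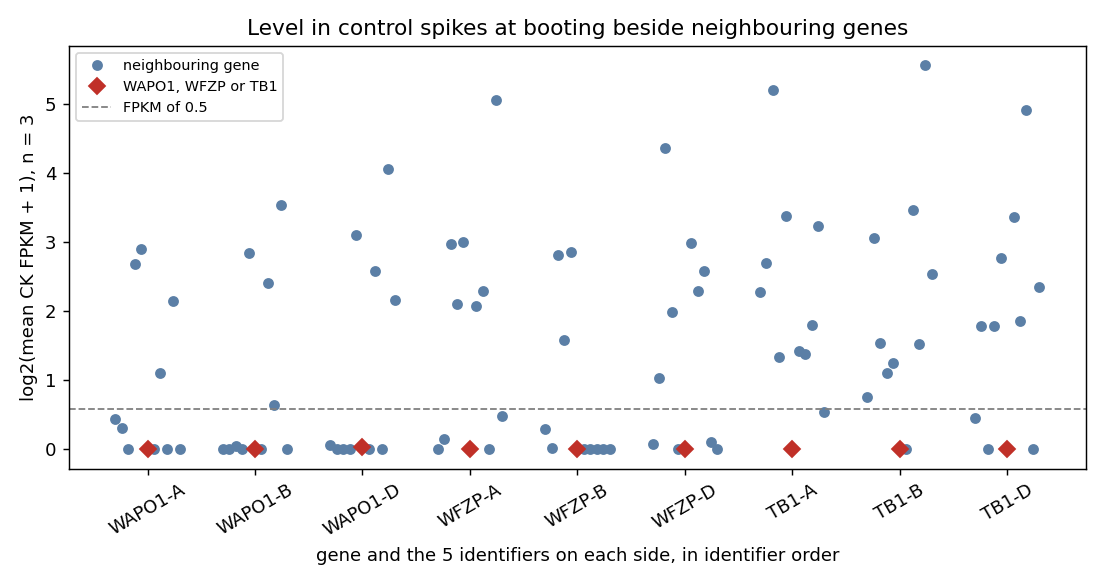
Mean CK FPKM (n = 3) on a log2(FPKM + 1) axis for each of the 9 genes (diamonds) and for the 5 identifiers on either side of it in identifier order (circles). The dashed line marks 0.5 FPKM. All 9 diamonds lie at or next to 0, and 52 of the 90 circles lie on or above the line.

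Of the 90 neighbours, 53 entered the fit, and 0 were lower and 2 higher in RNAi at the unadjusted threshold, shares to be read against the 4.31% and 5.23% of all genes. TraesCS2D02G118000, among those before WFZP-D, had 2.96 ± 1.17 FPKM in CK and 7.10 ± 1.34 in RNAi (SD, n = 3 and 4), a log2 difference of 1.06 (SE 0.31, limma adjusted p = 0.224). TraesCS7A02G482000, after WAPO1-A, had 3.43 ± 2.58 and 7.05 ± 0.478 FPKM, a log2 difference of 1.01 (SE 0.38, adjusted p = 0.296). Neither passed after adjustment over all genes.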

How the data were processed

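The 9 genes and all lists were chosen with earlier results of these data known. Per the labels and methods, the authors trimmed reads with Trim Galore 0.6.4, aligned them with HISAT2 2.1.0 and counted them on IWGSC high-confidence genes. They deposited FPKM per gene for 7 spike libraries and whole-number read counts for root and embryo. The embryo column is headed embryo_lnc, a mark not explained in the sources used here. Strand was not stated.

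FPKM were tested as log2(FPKM + 1) with limma 3.58.1 (trend) in R 4.3.3 over genes with a mean of at least 0.5. Library totals, gene lengths and reads behind the FPKM were recovered as whole numbers for edgeR 4.0.16 and DESeq2 1.42.0, used as alternatives. The fits and the recovery were tested on simulated data. Replicates are separate plants or lines per the methods, but p-values measure only the spread between these samples. Same-numbered CK and RNAi libraries did not deviate together (r of -0.08, -0.05 and 0.09), so the numbers were not treated as pairs. Intervals are exact Poisson, binomial and Clopper-Pearson at 95%. Named genes are the 9 and at most 2 neighbours of each. CAGE, peak and other tables were not used, since no annotation given places these genes on their build.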

Additional observations from a re-analysis of the deposited data

Results flagged for a closer look

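TB1-A in RNAi replicate 2, at 0.130 FPKM against 0 in the other 3 RNAi libraries, and WAPO1-A in the same library, at 0.0776 FPKM against 0 in the other 3, each stood apart from their group of 4 by Dixon's test at the 95% level. Chance flags about 1 group in 20, and a gene with reads in only 1 of 4 libraries always meets this criterion. The values rest on as few as 2 reads and 1 read, and no cause was tested.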

How the results depend on the processing

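For the 9 genes, 0 were on at booting under each of 7 alternatives. The 11 alternatives for the homoeologue pairs say nothing about stability, since pairs with reads in so few libraries cannot pass. Of 24 alternatives for RNAi against CK, 14 tested none of the 9 genes. The other 10, all without a minimum, tested 1 to 3 of them and called 0, with adjusted p between 0.668 and 0.858. Those that combine no minimum with a further choice were chosen after seeing the data. The WFZP ratios of root over embryo kept their direction with TMM and upper quartile scaling, but with upper quartile scaling the interval for WFZP-D ran from 0.961 to 364. The wider counts moved more. Genes lower in RNAi numbered 2393, and 6376 with edgeR and 6772 with DESeq2 on recovered reads. Genes higher numbered 2904, and 4433 with 0.1 added to FPKM and 4748 with the replicate block. That block with no minimum tested 3 of the 9 genes and called 0. Adjusted calls lower numbered 332, and 501 with quantile normalization, 514 with edgeR and 2260 with DESeq2. Adjusted calls higher numbered 17, and 6 with no minimum, 37 with quantile normalization, 5 with edgeR, 517 with DESeq2 and 134 with the replicate block. Among scalings and tools, the split turned from mostly higher to mostly lower with quantile normalization (2819 lower, 2198 higher), edgeR (6376 lower, 2230 higher) and DESeq2 (6772 lower, 2709 higher). Leaving out 1 library gave 1667 to 3299 lower, 816 (without CK replicate 2) to 6242 (without CK replicate 3) higher, 171 (without RNAi replicate 1) to 762 (without CK replicate 2) adjusted lower, and 1 (without CK replicate 1) to 118 (without CK replicate 3) adjusted higher. The count higher was also 1726, 1886 and 4562 without RNAi replicates 1, 2 and 4, adjusted lower 193, 187 and 174 without CK replicate 1 and RNAi replicates 2 and 3, and adjusted higher 11, 2, 11, 5 and 63 without CK replicate 2 and RNAi replicates 1 to 4. Genes at least 4-fold higher in embryo numbered 7988, and 13199 with 1 read as the minimum and 15348 at 2-fold. The cause was not tested for any of these. A library with 0 reads of a gene could not show a level under its limit at that depth.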
